A study of Mus musculus with 2 samples.

Results

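The cells described here are 109 endothelial cells of the mouse lung with transcripts of von Willebrand factor (Vwf) and few transcripts of the capillary genes Car4 and Ednrb. They were 24 of 8662 cells in the saline library and 85 of 8333 cells in the NP library. A cell was counted where it had 500 to 5000 detected genes, under 7.5% mitochondrial transcripts and under 5% transcripts of the neutrophil genes S100a8 and S100a9. It also had to hold at least 3 unique molecular identifiers (UMIs, each a captured transcript molecule) of the endothelial genes Cldn5, Cdh5, Pecam1 and Egfl7 together, under 3 UMIs of the fibroblast genes Col1a2 and Col3a1, and none of Csf1r or Cd79a. This left 436 saline and 1504 NP endothelial cells, from which those with at least 3 Vwf UMIs and under 2 UMIs of Car4 plus Ednrb were taken. The cells were thus chosen by the measured UMIs of these genes, whose levels define them and are not results. Vwf ranged from 3 to 103 UMIs per saline cell with a median of 12, and from 3 to 102 per NP cell with a median of 9. Just inside the limit, 1 saline and 11 NP cells held exactly 3 Vwf UMIs, and just outside it 5 saline and 19 NP cells held exactly 2.

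Endothelial cells line every blood vessel, and in the lung the gas-exchanging capillaries far outnumber the arteries and veins that feed and drain them. Vwf is stored in Weibel-Palade bodies of larger vessels and captures platelets when the vessel is injured. Arterial and venous endothelium differ in transcription factors and surface proteins, and in many organs outside the lung leukocytes leave the blood mainly through venous endothelium. Endothelial cells can also present antigen: MHC class I presents peptides from inside the cell to CD8 T cells, MHC class II presents peptides of taken-up proteins to CD4 T cells, and interferon gamma (IFN-γ) is a known inducer of both.

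Both groups were female BALB/cJ mice aged 12 weeks that had been inoculated with 100000 cells of 4T1, a mouse mammary carcinoma line (by the study's methods its reporter derivative 4T1-luc2-tdTomato). From day 1 after inoculation they received intravenous saline or intravenous cargo-free particles of the polymer PLG (NPs) every 3 days, and lungs were collected on day 14. Each condition is 1 library from lungs pooled over 4 mice by the labels (5 by the study's methods), so there are no replicates and no test, and every interval below is a 95% interval that covers counting error only. All mice carried the tumor, so there is no tumor-free reference.

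The 24 saline cells held 120912 UMIs in total, with a median of 5070.5 per cell and a range of 1071 to 11868. The 85 NP cells held 569114 UMIs, with a median of 5305 and a range of 797 to 21429. Median detected genes were 2257 and 2134. No barcode was shared between saline and NP members, and 1 NP member shared its barcode with another saline cell. Doublets were kept. By Scrublet scores, 0 saline and 1 NP member fell in the top 5% of their library, and 1 saline and 8 NP members held a UMI of the leukocyte gene Ptprc.

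The label of large-vessel endothelium was compared with vessel-type markers that the rule did not use. The reference was the endothelial cells with no Vwf UMI and under 2 UMIs of Car4 plus Ednrb, called Vwf-negative cells below (226 saline and 842 NP cells). Levels are pooled CPM, the UMIs of a gene over all UMIs of the cells of a group, scaled to a total of 1000000. The Vwf-negative cells were not free of other transcripts. Their epithelial genes summed to 28700 CPM in saline and 8798 CPM in NP, against 141 and 211 CPM in the Vwf-positive cells. A Ptprc UMI was held by 34 of the 226 saline and 76 of the 842 NP cells. The lymphatic gene Ccl21a had 379 and 1880 UMIs in them. The part of these transcripts in the ratios was not tested, apart from a removal of Ptprc-positive cells given below. The genes furthest above the Vwf-negative cells in both libraries included Slc6a2, the noradrenaline transporter of pulmonary venous endothelium, with 1199 CPM in saline members (0 UMIs in the saline Vwf-negative cells) and 425 against 1.80 CPM in the NP library. The carboxypeptidase Cpe reached 430 against 4.84 CPM in saline and 546 against 1.80 CPM in NP cells, and Cytl1, a secreted cytokine-like protein, 405 against 4.84 and 541 against 4.33 CPM. Mgp, the matrix Gla protein of arterial walls, stood at 1480 against 90.8 CPM in saline and 956 against 42.2 CPM in NP cells. Others among the 10 highest were Pdlim3, Cdh13, Atp13a3, Amigo2 and Fstl1. The pooled levels of Mgp, Cytl1, Cpe and Slc6a2 came from a minority of the cells and do not describe each cell. Mgp UMIs lay in 5 of the 24 saline members and in 23 of the 85 NP members. The corresponding numbers of cells were 7 and 25 for Cytl1, 9 and 33 for Cpe, and 10 and 26 for Slc6a2.

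Of 12 arterial genes with enough UMIs in both libraries, 5 were at least 2-fold higher in the Vwf-positive cells in both, namely Mgp, Gja5 (connexin 40), Cxcl12, Fbln5 and the kinase Bmx. Of 8 venous genes, 5 were higher in both, namely Slc6a2, Vegfc, Car8, Ptgs1 and Il1r1. None of either list was at least 2-fold lower in both. These counts used the fold alone and not the interval, and they rest on pooled levels. The Gja5 UMIs, for instance, lay in 6 saline and 19 NP members, with 56% of the saline UMIs in 1 cell. For Il1r1 the saline log2 ratio of 1.19 rested on 6 UMIs in the Vwf-positive cells, with an interval from −0.43 to 2.58. Over all 6508 genes outside the rule with as many UMIs, 1.54% were at least 2-fold higher in both libraries and 1.75% lower. Further venous genes, too sparse in the saline library for this count, had few UMIs outside the Vwf-positive cells: Ackr1, the chemokine-binding receptor of venules, had 11 saline and 21 NP UMIs in them and 0 in the Vwf-negative cells of either library. Gja4, Efnb2 and Tmem252 differed by at most 0.50 on the log2 scale from the Vwf-negative cells. The arterial transcription factor genes Sox17 (−1.15 in saline and −0.74 in NP cells) and Hey1 (−0.97 and −0.44) went the other way, with intervals that excluded 0 in both libraries. The general capillary genes were not absent: Gpihbp1, the capillary anchor of lipoprotein lipase, stood at 1944 CPM in saline and 1755 CPM in NP members, against 1936 and 2344 CPM in the Vwf-negative cells, and was found in 22 of 24 and 74 of 85 cells. Only Aplnr of 9 such genes was at least 2-fold lower in both libraries. Lyve1, known from lymphatic and some blood endothelium, was 1.43 and 1.44 higher on the log2 scale in saline and NP members, while the lymphatic genes Ccl21a and Reln were at 0, and the lymphatic regulator Prox1 had 0 and 3 UMIs. By these markers the cells, taken as a pool, carried some arterial and venous transcripts at raised levels beside those of general capillaries. Sox17 and Hey1 did not follow the label.

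**Figure D1:**
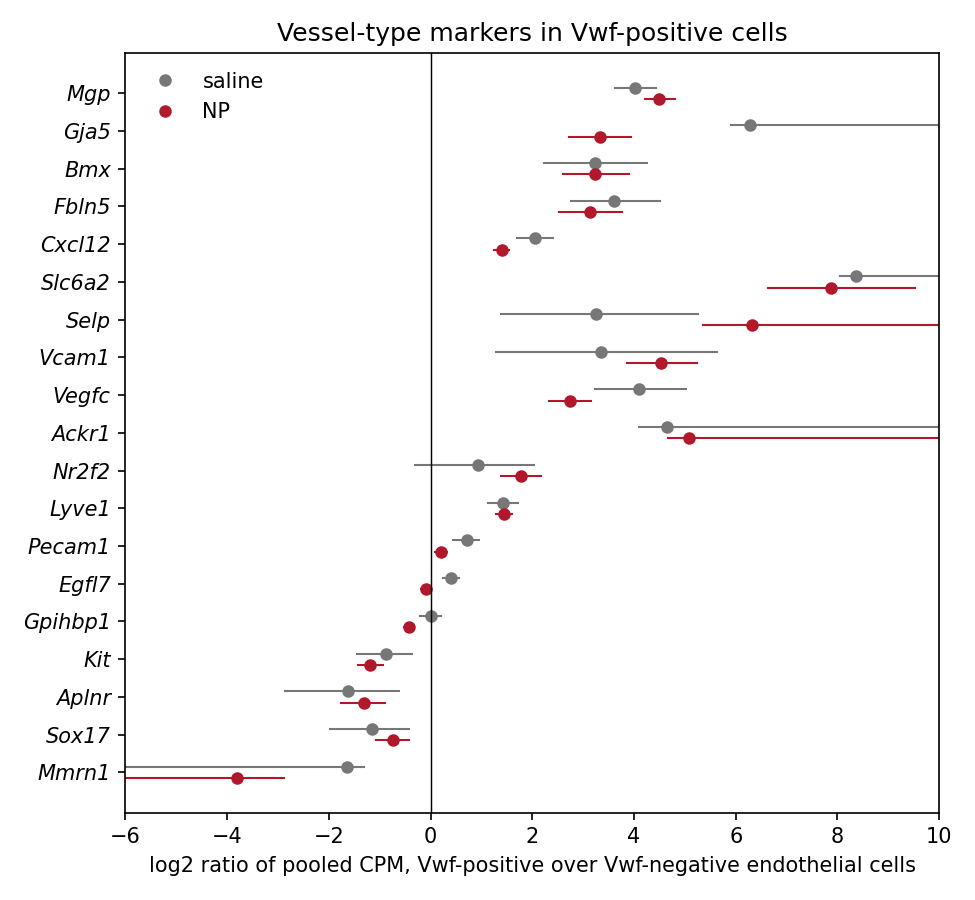
Log2 ratios of pooled CPM in Vwf-positive over Vwf-negative endothelial cells (x axis) for 19 vessel-type genes (y axis), in the saline library (grey) and the NP library (red). Points are ratios with counts under 3 set to 3, and lines are 95% counting intervals, which run off the axis where a group had 0 UMIs. Mgp, Gja5, Bmx, Fbln5, Slc6a2 and Ackr1 lie well to the right in both libraries, and Gpihbp1 lies near 0.

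Arterial and venous transcripts were largely held by different cells. Summed over 16 arterial and 15 venous genes, 11 of 24 saline cells had more arterial than venous UMIs (45.8%, 25.6% to 67.2%), as had 48 of 85 NP cells (56.5%, 45.3% to 67.2%). Venous UMIs led in 12 saline and 37 NP cells, and 1 saline cell was tied. The larger sum was at least 3 times the smaller in 17 of 24 saline and 66 of 85 NP cells, and under 2 times in 5 and 12 cells, which lie near the dividing line. With every cell thinned to 1000 UMIs, 11 of 24 saline and 45 of 84 NP cells were arterial-leaning. The intervals of the shares overlapped, so a difference in the arterial to venous mix was not detectable with these cell numbers.

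**Figure D2:**
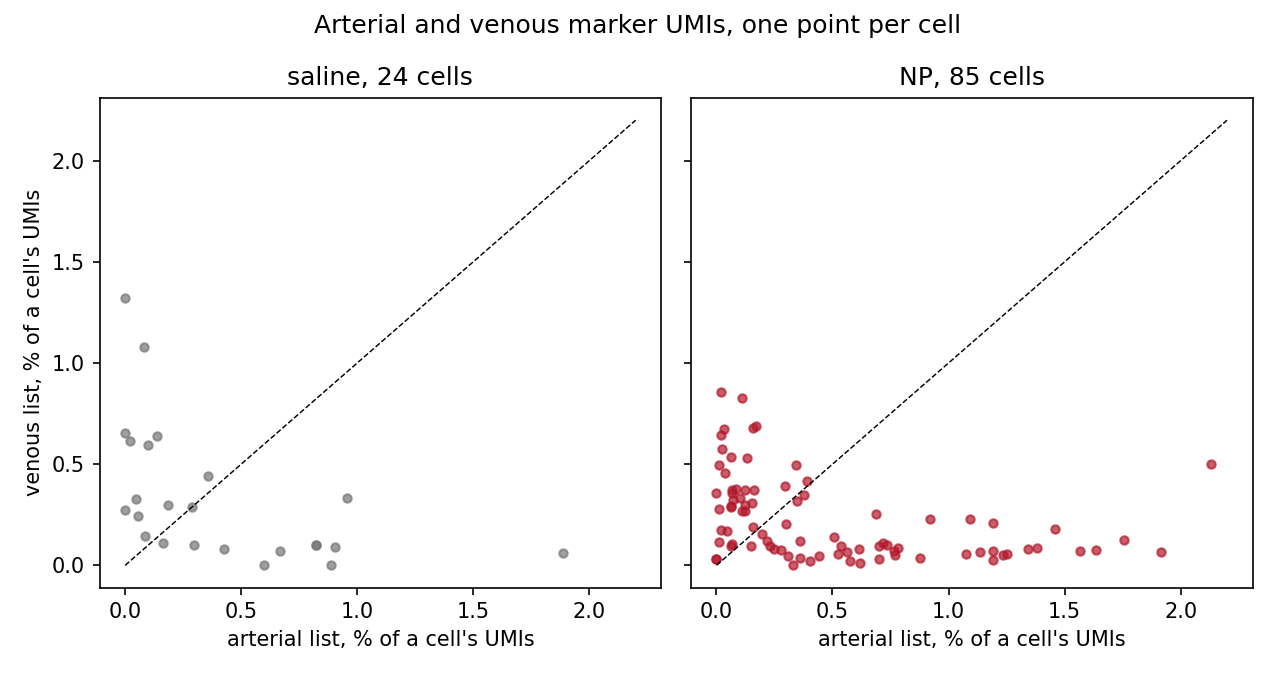
UMIs of the arterial list (x axis) and of the venous list (y axis), each as a percentage of a cell's UMIs, with 1 point per Vwf-positive cell, in the saline (24 cells) and NP (85 cells) libraries. The dashed line marks equal shares. Most cells lie along one axis or the other in both libraries.

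Vwf-positive cells were 5.50% (3.56% to 8.08%) of saline endothelial cells and 5.65% (4.54% to 6.94%) of NP endothelial cells. Thinned to 1000 UMIs per cell the shares were 4.23% (2.48% to 6.68%) and 2.67% (1.89% to 3.66%), and these intervals overlapped too. Vwf itself, which chose the cells, stood at 4574 CPM in saline and 2713 CPM in NP members. As a share of all cells they were 0.277% and 1.02%, while the endothelial gate as a whole took in 5.03% of the saline library and 18.0% of the NP library. Of the 3113 saline and 5190 NP cells under the S100a8 and S100a9 limit they were 0.771% (0.495% to 1.14%) and 1.64% (1.31% to 2.02%). Shares of captured cells depend on the other cells captured and are no counts per lung. The study, which assigned cells by clustering, reported endothelial shares closer together than these.

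NP was then compared with saline across all genes. A gene was called higher or lower where its pooled CPM differed at least 2-fold and the counting interval of the ratio excluded equality. Of 5294 genes with at least 20 UMIs, 98 were higher in the NP cells (1.85%) and 147 were lower (2.78%), and the median log2 ratio of all 5294 was −0.04. These calls compare 2 libraries and not the conditions. Of the 98 higher genes 90 had under 20 saline UMIs, and of the 147 lower genes 58 had under 20 NP UMIs, so that they passed the limit through the library where they were higher. In 22 of the 98 higher genes a single NP cell held at least 50% of the NP UMIs, and in 14 of the 147 lower genes a single saline cell held at least 50% of the saline UMIs. With at least 25% in a single cell, the counts were 27 of the 98 higher and 71 of the 147 lower genes. At least 40% of cells of the higher library held a UMI in 44 of the higher and 50 of the lower genes.

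Cd74, H2-Eb1, H2-Ab1 and H2-Aa, genes of MHC class II, had the highest ratios among the higher genes found in at least 40% of NP cells. With 4 to 12 saline UMIs each, they passed this limit and the limit of 20 UMIs through the NP cells alone. Cd74, the invariant chain that guides class II molecules, had 12 UMIs in 3 of 24 saline cells, 9 of them in 1 cell, and 920 UMIs in 67 of 85 NP cells, or 99.2 and 1617 CPM (log2 ratio 4.03, 3.21 to 4.98). H2-Ab1, H2-Aa and H2-Eb1 encode chains of the class II molecules themselves. H2-Ab1 had 8 UMIs in 5 saline cells and 385 UMIs in 69 NP cells (66.2 and 676 CPM, log2 ratio 3.35, 2.36 to 4.58). H2-Aa had 4 and 185 UMIs (33.1 and 325 CPM, 3.30, 1.92 to 5.19) and H2-Eb1 had 5 and 244 UMIs (41.4 and 429 CPM, 3.37, 2.13 to 5.01). These 3 genes lie together on chromosome 17 (GENCODE M21 on GRCm38), H2-Ab1 at chr17:34257689-34269419, H2-Aa at chr17:34282744-34287823 and H2-Eb1 at chr17:34305867-34316674. H2-DMb1, of the H2-DM complex that loads peptides on class II, had 2 and 58 UMIs, a log2 ratio of 2.04 with a wide interval from 0.71 to 5.70. Of the 14 listed class II genes, 7 had enough UMIs, 5 of these were higher and 0 were lower, against 1.85% and 2.78% of all genes, and the median log2 ratio was 3.30. Ciita, the class II transactivator, had 0 UMIs in the saline cells and 16 UMIs in 12 NP cells, which is too few for the list. H2-Eb2, H2-DMb2, H2-Oa and H2-Ob were at 0 in both libraries.

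The class II UMIs were not the product of a few NP cells. Summed over the list, at least 1 class II UMI was held by 11 of 24 cells in the saline library (45.8%, 25.6% to 67.2%) and by 78 of 85 in the NP library (91.8%, 83.8% to 96.6%). The median cell held 0 in the saline and 15 in the NP library, the highest cell 15 and 118, and 1 saline and 51 NP cells held at least 10. Both vessel leanings showed the difference. Among arterial-leaning cells the median was 0 UMIs in 11 saline cells and 8 in 48 NP cells, and Cd74 was found in 0 of 11 saline cells, which allows a share of cells with a UMI of up to 27.3% and sets no limit on expression, and in 35 of 48 NP cells. Among venous-leaning cells the median was 1 in 12 saline cells and 20 in 37 NP cells, and Cd74 was found in 2 and 32 cells. No Cd79a was allowed by the rule, and the B cell genes Cd79b and Ms4a1, like the macrophage genes Adgre1, C1qa and Marco, were at 0 in the members of both libraries. Summed over the whole lists, B cell genes had 2 and 13 UMIs in saline and NP members, led by Ebf1, and monocyte and macrophage genes 22 and 128, led by Lyz2. Their part in the class II UMIs was not tested.

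**Figure D3:**
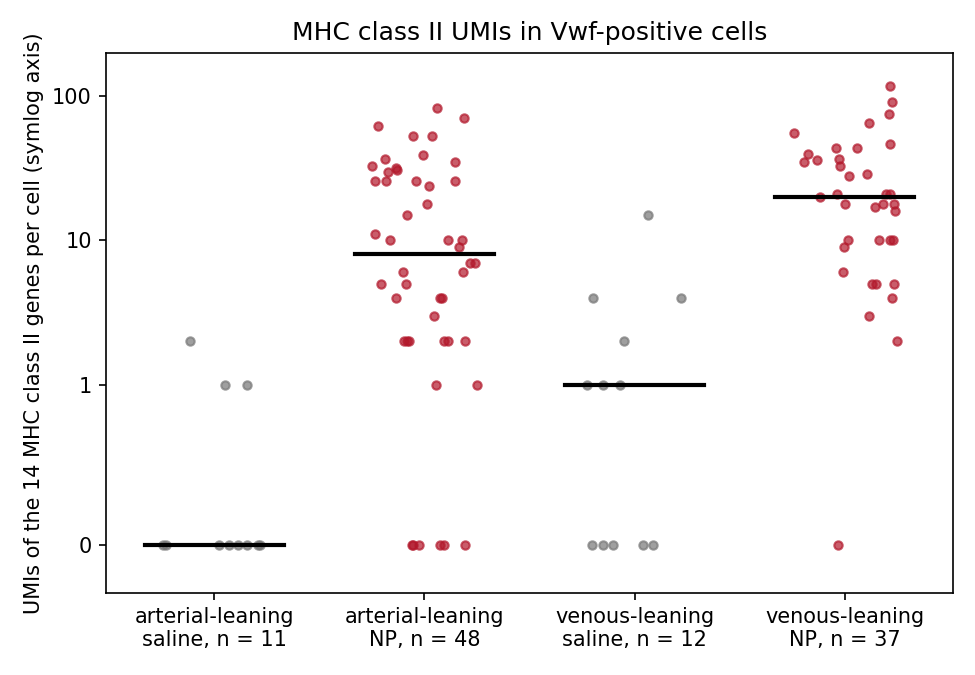
UMIs of the 14 MHC class II genes per Vwf-positive cell (y axis, linear to 1 and logarithmic above), with 1 point per cell, split by library and by whether arterial or venous UMIs led. Black bars are medians, at 0 and 8 UMIs in arterial-leaning and 1 and 20 UMIs in venous-leaning saline and NP cells.

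RNA from broken cells adds UMIs to every droplet, so the share of cells with a Cd74 UMI was set beside those of neutrophils and fibroblasts. The fibroblasts did not all lack Cd74. In saline they held 149 UMIs of it in 13 of 93 cells (195 CPM), above the 99.2 CPM of the Vwf-positive cells. Their shares are therefore no measure of free RNA alone. In saline it was 12.5% of the Vwf-positive cells (2.66% to 32.4%), 8.64% of neutrophils and 14.0% of fibroblasts, with median depths of 5070.5, 6445 and 6969 UMIs, and both other shares lay within the interval of the Vwf-positive cells. In the NP library it was 78.8% of the Vwf-positive cells (68.6% to 86.9%), 14.6% of neutrophils and 13.4% of fibroblasts, with median depths of 5305, 5554 and 4586 UMIs. Thinned to 1000 UMIs, the Vwf-positive cells stood at 8.33% (1.03% to 27.0%) in saline and 59.5% (48.3% to 70.1%) in NP, the neutrophils at 1.4% and 3%, and the fibroblasts at 4.30% and 3.36%. At this depth the saline share rests on 2 of 24 cells and could not be told apart from that of neutrophils or fibroblasts. Estimated from S100a8 and S100a9, free RNA made up 0.860% of saline and 1.10% of NP member UMIs. Both genes also set an upper limit in the choice of the cells. The estimate predicts 6.68 and 21.4 CPM of Cd74, against the measured 99.2 and 1617 CPM. For Sftpc it predicts 12.5 and 59.4 CPM against the measured 0 and 128 CPM, so it is rough.

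The other endothelial cells differed in the same direction. In the Vwf-negative cells Cd74 stood at 866 CPM in saline and 3044 CPM in NP (log2 ratio 1.81), H2-Ab1 had a ratio of 1.99, H2-Aa 1.74 and H2-Eb1 2.41. In cells with at least 2 UMIs of Car4 plus Ednrb and under 3 of Vwf (155 saline and 495 NP cells) the ratios were 2.31, 1.77, 1.85 and 2.56. Without the cells that held a Ptprc UMI, Cd74 had a log2 ratio of 4.33 in 23 saline and 77 NP Vwf-positive cells, and of 2.33 in 192 and 766 Vwf-negative cells. In the saline Vwf-negative cells this removal took Cd74 from 715 to 361 UMIs. In both libraries Cd74 stood lower in the Vwf-positive than in the Vwf-negative cells. After the removal the levels were 84.9 against 615 CPM in saline and 1706 against 3089 CPM in NP. By the same rule 2.16% of 10234 tested genes were higher and 2.41% lower in the Vwf-negative cells, and 2.4% and 1.48% of 9735 in the Car4 or Ednrb-positive cells. The difference between the endothelial groups was not tested, and the 12 saline UMIs of Cd74 limit the Vwf-positive ratio.

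Of 24 listed MHC class I genes 23 had enough UMIs, and 7 of these were higher and 1 lower, against 1.85% and 2.78% of all genes. Of the 7, H2-Q6 and H2-Q7 had under 20 saline UMIs (8 and 14) and passed the limit through the NP cells. H2-K1, a class I heavy chain, had 189 UMIs in 22 of 24 saline cells and 2176 UMIs in 85 of 85 NP cells (1563 and 3823 CPM, log2 ratio 1.29, 1.08 to 1.51). B2m, the light chain of class I, stood at 1414 and 3479 CPM (1.30, 1.07 to 1.53), and the heavy chain H2-D1 at 4665 and 9513 CPM (1.03, 0.90 to 1.16). H2-Q6 and H2-Q7, non-classical members with near-identical sequences between which reads may be split, had ratios of 2.16 and 1.95 and were found in 4 and 10 of 24 saline cells. Psmb8, a subunit of the immunoproteasome that cuts peptides for class I, had 28 and 321 UMIs and a ratio of 1.28. The lower gene was the peptide-trimming enzyme Erap1 (−1.03, −1.91 to −0.08), and the median of the list was 0.53. Erap1 was short of 2-fold under several alternatives, among them Vwf at 2 UMIs (−0.77) and arterial-leaning cells alone (−0.04). In the Vwf-negative and the Car4 or Ednrb-positive cells the list medians were 0.83 and 0.73.

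IFN-γ response genes leaned the same way as the presentation genes. The list of 51 genes overlaps the class I list, and 35 genes had enough UMIs. Of these, 11 were higher and 0 were lower, against 1.85% and 2.78% of all genes, 32 had a ratio above 0, and the median was 0.70, against −0.04 over all genes. Of the 11, only Gbp4 and Psmb8 had 20 saline UMIs or more, and the other 9 passed the limit through the NP cells. The immunity-related GTPases act on vacuoles of intracellular pathogens. Among them Iigp1 had 10 UMIs in 7 saline cells and 281 UMIs in 47 NP cells (82.7 and 494 CPM, log2 ratio 2.58, 1.68 to 3.65), Igtp had 4 and 74 UMIs (1.97, 0.56 to 3.89), and Irgm2 had 3 and 62 UMIs (2.13, 0.52 to 4.45). Of the guanylate-binding proteins, Gbp4 had 28 UMIs in 12 saline cells and 358 UMIs in 70 NP cells (232 and 629 CPM, 1.44, 0.89 to 2.05), and Gbp2 had 3 and 61 UMIs (2.11). With the mitochondrial limit at 5% the ratio of Gbp4 was 0.88. In arterial-leaning cells alone the ratios of Igtp (0.83) and Irgm2 (0.70) were short of 2-fold, with intervals that included 0. Serpina3g, a protease inhibitor, had a ratio of 0.69 (0.24 to 1.17), short of 2-fold. The chemokine gene Cxcl9 was at 0 in both libraries and Cxcl10 had 0 saline UMIs and 10 UMIs in 4 NP cells. The medians of this list were 1.06 in the Vwf-negative cells and 1.02 in the Car4 or Ednrb-positive cells.

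Of 44 listed genes more typical of type I interferon, 26 had enough UMIs and 1 was higher and 0 lower, beside 1.85% and 2.78% of all genes, with a median of 0.19. That gene, Ifi27l2a, had 66% of its 125 NP UMIs in a single cell. Ifitm3, a restriction factor against viral entry, stood at 3846 and 4583 CPM (0.25). Isg15, a ubiquitin-like modifier chosen after its values were seen, had 8 and 73 UMIs (0.96, −0.10 to 2.22).

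**Figure D4:**
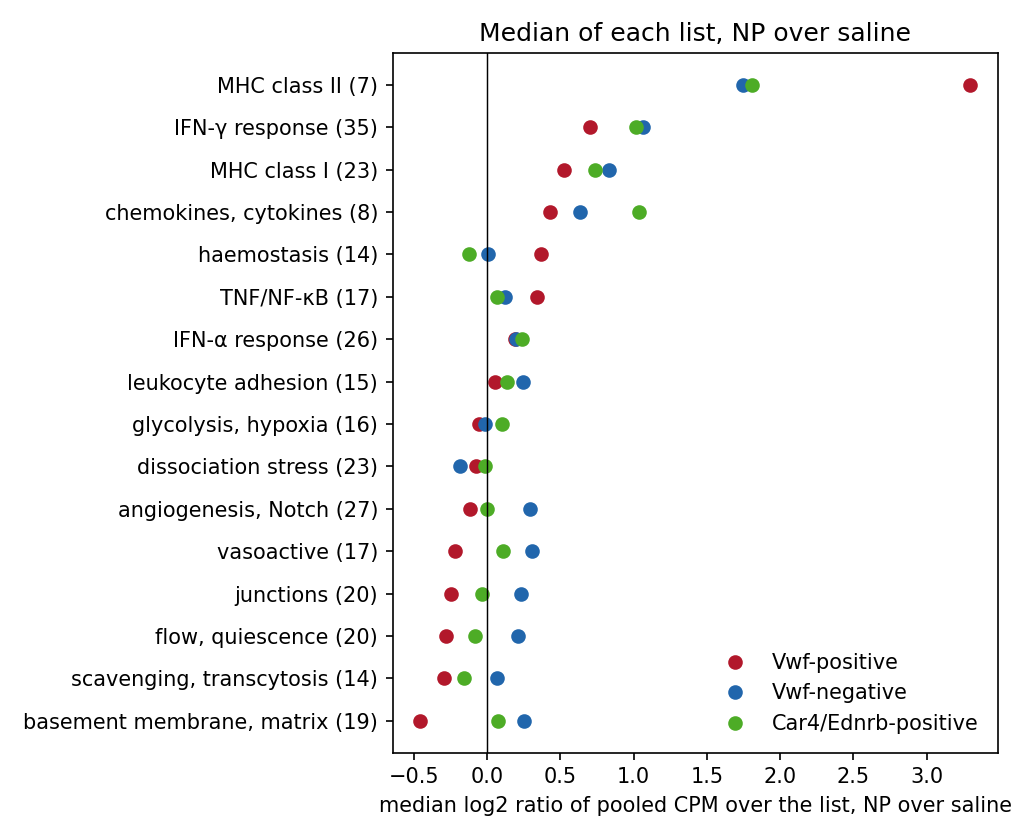
Median log2 ratio of pooled CPM, NP over saline (x axis), over the genes of 16 lists with at least 20 UMIs (y axis, with the number of genes in the Vwf-positive cells in brackets), in Vwf-positive (red), Vwf-negative (blue) and Car4 or Ednrb-positive (green) endothelial cells. MHC class II (3.30), the IFN-γ response (0.70) and MHC class I (0.53) lead in the Vwf-positive cells, and basement membrane and matrix genes are at −0.46.

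Promoter sequences are shown for 3 of the genes called higher in the NP cells, with motifs known for class II and interferon-induced genes. They are the 250 bases before the RefSeq start site on GRCm38.p6, written 5′ to 3′ on the strand of the gene, and the motifs and genes were chosen after the values were seen. Capitals mark CTGATTGG, the core of the Y box, in the first and second sequence. In the third they mark TTCNNNGAA, the gamma-activated site, and the core of the interferon-stimulated response element (GAAA, any 2 bases, GAAA), which do not overlap. The windows are chr17:34287824-34288073 on the minus strand for H2-Aa, chr17:34305617-34305866 on the plus strand for H2-Eb1 and chr11:58199306-58199555 on the plus strand for Igtp.
H2-Aa: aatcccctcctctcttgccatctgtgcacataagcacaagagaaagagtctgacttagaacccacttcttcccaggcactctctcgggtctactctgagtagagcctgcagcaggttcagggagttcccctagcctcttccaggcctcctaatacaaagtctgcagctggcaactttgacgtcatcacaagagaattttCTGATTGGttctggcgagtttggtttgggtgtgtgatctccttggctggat
H2-Eb1: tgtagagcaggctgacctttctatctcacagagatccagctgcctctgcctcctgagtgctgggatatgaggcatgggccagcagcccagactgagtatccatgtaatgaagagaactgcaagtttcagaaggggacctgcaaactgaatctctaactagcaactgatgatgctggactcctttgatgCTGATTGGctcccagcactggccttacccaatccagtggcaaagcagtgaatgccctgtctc
Igtp: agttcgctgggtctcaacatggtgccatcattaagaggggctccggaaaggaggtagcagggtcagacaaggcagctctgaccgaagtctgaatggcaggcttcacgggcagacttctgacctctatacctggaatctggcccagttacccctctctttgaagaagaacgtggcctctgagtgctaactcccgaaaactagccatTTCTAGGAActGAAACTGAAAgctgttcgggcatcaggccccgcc

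The Y box core ended 43 bases before the start site of H2-Aa and 54 bases before that of H2-Eb1. Searched on both strands, it was found in 3.83% of all 32851 promoter windows, in 5.62% of the 4220 tested genes with a window and in 10 of 72 matched genes that were higher in NP cells. H2-D1, H2-Q6 and H2-Q7 also held it, and B2m, H2-K1 and H2-DMb1 did not hold these letters in the window. Of the 5 higher class II genes 3 were matched, and H2-Ab1 and Cd74 were not. The interferon-stimulated response element core was found in 2.98% of all windows, 3.55% of tested genes and 8 of 72 higher genes, among them Igtp, Irgm1, Irgm2, Gbp2, Gbp2b and B2m. The gamma-activated site was found in 7.02% of all windows, 6.64% of tested genes and 7 of 72 higher genes, among them Igtp, Irgm2 and Psmb8. A match is a description of letters and no measure of binding.

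Of 15 measured genes for leukocyte capture, Vcam1 was higher and Ackr1 lower, and 1 call each way among so few genes is not read as a result beside the 1.85% and 2.78% of all genes. Vcam1, the adhesion receptor that holds leukocytes with integrin α4, had 6 UMIs in 3 saline cells and 109 UMIs in 20 NP cells (49.6 and 192 CPM, log2 ratio 1.95, 0.78 to 3.43). Ackr1 had 11 and 21 UMIs (91.0 and 36.9 CPM, −1.30, −2.42 to −0.10). Icam1, the ligand of leukocyte integrin β2, stood at 248 and 315 CPM (0.34, −0.22 to 0.95), P-selectin (Selp) had 7 and 49 UMIs (0.57, with an interval that included 0), and Icam2 stood at 695 and 720 CPM (0.05). The median of the list was 0.05, and 0.16 without Pecam1, which the rule used.

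Clotting and anticoagulant genes showed 1 higher gene and 0 lower genes among the 13 measured besides Vwf, which chose the cells, and 1 call among so few genes is not read as a result of the list beside the 1.85% of all genes. S100a10, the partner of annexin A2 in a plasminogen receptor, had 36 UMIs in 10 of 24 saline cells and 366 UMIs in 61 of 85 NP cells (298 and 643 CPM, 1.11, 0.61 to 1.65), against ratios of 0.04 and 0.08 in the Vwf-negative and the Car4 or Ednrb-positive cells. Thinned to 1000 UMIs per cell, the ratio of S100a10 was 0.70, short of 2-fold. Thrombomodulin (Thbd), the cofactor that turns thrombin to protein C, stood at 1026 and 814 CPM (−0.33). Its ratio was 0.62 (0.09 to 1.19) in arterial-leaning cells alone and −0.89 (−1.26 to −0.50) in venous-leaning cells alone. The median of the list was 0.38 without Vwf and 0.37 with it. Of 17 TNF and NF-κB genes 1 was higher, again Vcam1, and 1 was lower, the caspase inhibitor gene Birc3, with a median of 0.34, and 1 call each way is not read as a result beside the 1.85% and 2.78% of all genes. The inhibitor gene Nfkbia had a ratio of 0.70 (0.32 to 1.09).

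Of 13 venous genes 2 were called higher and 2 lower, and of 14 arterial genes 0 and 2, beside 1.85% and 2.78% of all genes. The higher venous genes were Vcam1 and the venous regulator Nr2f2 (9 and 95 UMIs, log2 ratio 1.17, 0.18 to 2.34, but 0.31 under a mitochondrial limit of 5% and 0.52 with equal weight per cell), and the lower ones Ackr1 and Slc6a2. Slc6a2 had 145 UMIs in 10 of 24 saline cells and 242 UMIs in 26 of 85 NP cells (1199 and 425 CPM, −1.50, −1.80 to −1.19), with 33% of the saline UMIs in 1 cell. Of the arterial genes, Gja5 (34 and 74 UMIs, −1.11, 56% of the saline UMIs in 1 cell) and Fbln5, an elastic fibre protein (34 and 65 UMIs, −1.30), were lower. Gja5 turned to 1.21 under a mitochondrial limit of 5%. Fbln5 was short of 2-fold when thinned to 1000 UMIs per cell (−0.81) and with equal weight per cell (−0.97). Cxcl12, the ligand of Cxcr4, stood at 910 and 1098 CPM (0.27, −0.02 to 0.58), and Gja4 and Efnb2 had ratios of 0.27 and 0.24. With the 5% mitochondrial limit, which left 12 saline and 59 NP cells, the ratio was 2.51 for Cxcl12, 1.12 for Efnb2 and 0.15 for Gja4. Esm1, which marks tip cells of sprouting vessels, had 2 UMIs in 1 saline cell and 89 UMIs in 14 NP cells (2.66, 1.35 to 6.31), all of them in arterial-leaning cells.

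Among genes of tone and matrix 0 were higher and 4 of 17 and 2 of 19 were lower, against 2.78% of all genes that were lower. Of the 4, Gucy1a1 and Pde5a had all their saline UMIs in 1 cell, and of the 2, Emilin1 turned in sign among arterial-leaning cells. Sgk1, a kinase that acts on ion transport, had 62 UMIs in 14 of 24 saline cells and 79 UMIs in 39 of 85 NP cells (513 and 139 CPM, −1.89, −2.38 to −1.38). It had ratios of −1.45 in arterial-leaning and −2.06 in venous-leaning cells, and 44% of its saline UMIs came from 1 cell. Nr4a1, an immediate early nuclear receptor, had 36 UMIs in each library (298 and 63.3 CPM, −2.23), with 47% of the saline UMIs in 1 cell. Npr3, the clearance receptor of natriuretic peptides, stood at 281 and 114 CPM (−1.30, −1.92 to −0.66, but −0.79 without the 2 saline and 7 NP cells that held at least 10 marker UMIs of another cell type), and Emilin1, an elastic fibre glycoprotein, at 149 and 47.4 CPM (−1.65, but 0.63 in arterial-leaning cells alone). Sema3c, a guidance factor of capillary cells, stood at 703 and 271 CPM (−1.38, −1.77 to −0.98). Without the same 2 and 7 cells its ratio was −0.52. The flow-responsive factors Klf2 (3259 and 2100 CPM, −0.63, −0.80 to −0.47) and Klf4 (703 and 425 CPM, −0.73), and the BMP target Id1 (1108 and 657 CPM, −0.75), did not reach 2-fold. By leaning, Id1 had ratios of −1.29 (−1.71 to −0.86) in venous-leaning and −0.29 in arterial-leaning cells. Of 20 flow and quiescence genes 0 were called, and 4 had a ratio above 0, with a median of −0.28. The medians were −0.46 over 19 matrix genes, of which 0 were higher and Fbln5 and Emilin1 were lower, and −0.22 over 17 vasoactive genes, of which 0 were higher and Npr3, Slc6a2, Gucy1a1 and Pde5a were lower. They were −0.25 over 20 junction genes (0 higher, only Gja5 lower, and −0.26 over the 17 genes that the rule did not use), −0.29 over 14 scavenging and transcytosis genes (0 higher, only the fatty acid binding protein Fabp4 lower) and −0.11 over 27 angiogenesis genes (only Esm1 higher, 0 lower). Counts of 0 or 1 among lists of this size are not read as results beside the shares of all genes. Among abundant genes the adrenomedullin receptor parts Calcrl and Ramp2 had ratios of −0.22 and −0.21, the VEGF receptor Flt1 −0.11 and the hypoxia factor Epas1 0.12.

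**Figure D5:**
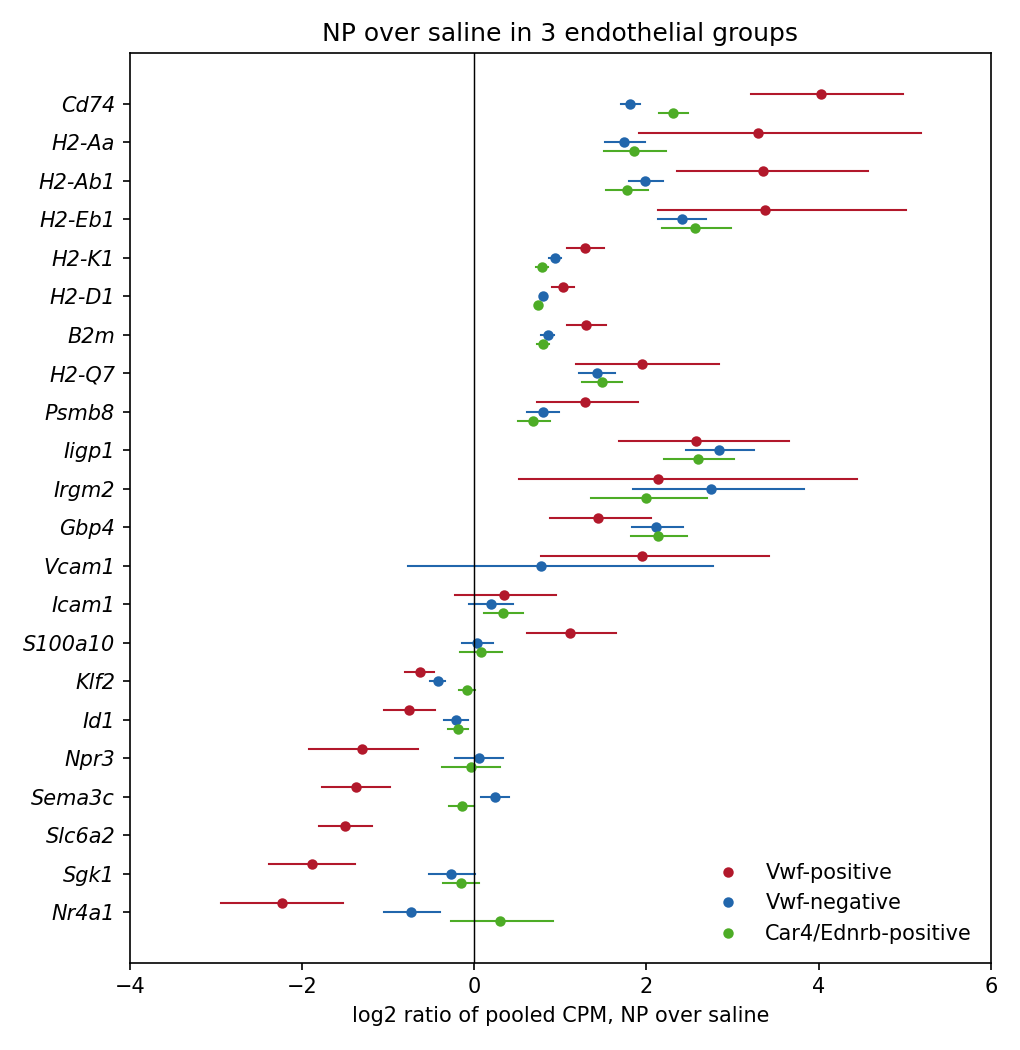
Log2 ratios of pooled CPM, NP over saline (x axis), of 22 genes (y axis) in Vwf-positive (red), Vwf-negative (blue) and Car4 or Ednrb-positive (green) endothelial cells, with 95% counting intervals. A group is left out of a row where the gene had under 20 UMIs. Class II, class I and IFN-γ response genes lie to the right in all 3 groups, while S100a10, Npr3, Sema3c, Sgk1 and Nr4a1 are furthest from 0 in the Vwf-positive cells.

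Lists of housekeeping and stress processes held few called genes, and these counts are not read as results beside the 1.85% higher and 2.78% lower of all genes. Glycolysis and hypoxia genes had 0 calls among 16, with a median of −0.05. Of 4 measured cell cycle genes only Hmgb2 was higher (6 and 75 UMIs, in 6 saline and 48 NP cells, 1.41, 0.22 to 2.90). With equal weight per cell the ratio of Hmgb2 was 0.73, short of 2-fold. Top2a, Cdk1 and Ccnb1 were at 0 in both libraries. Of 23 immediate early and heat shock genes, which enzymatic dissociation can induce, Fosb was higher and Atf3 and Nr4a1 were lower, with a median of −0.08. The median was 0.38 in arterial-leaning and −0.64 in venous-leaning cells. Atf3 had 86% of its 56 saline UMIs in 1 cell, and Fosb had its 8 saline UMIs in 1 cell.

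Several of the largest ratios came from single cells with transcripts of other cell types. All 5 platelet genes of 10 listed that had enough UMIs were called higher, beside 1.85% of all genes, through few cells: Pf4 (platelet factor 4) had 0 saline and 279 NP UMIs, of which over 99% were in 1 cell, and Nrgn had 274 NP UMIs, 97% of them in 1 cell. The T and NK cell gene Gzma had all 75 NP UMIs in 1 cell, and Ccl5 had 94% of 82 NP UMIs in 1 cell. The mural gene Rgs5 had 26 saline and 21 NP UMIs (−2.54), and all 11 saline UMIs of Gucy1a1 and all 12 of Pde5a, both of the nitric oxide response of smooth muscle, were in 1 saline cell. The surfactant gene Sftpc, of alveolar type 2 cells, had 0 UMIs in 24 saline cells, which allows a share of cells with a UMI of up to 12.5%, and 73 UMIs in 39 of 85 NP cells. Of neutrophils, which lack it, 12.3% in the saline and 31.6% in the NP library held a Sftpc UMI. Summed over whole marker lists, platelet genes stood at 33.1 and 1248 CPM in saline and NP members, T and NK cell genes at 8.27 and 248 CPM and mural genes at 405 and 94.9 CPM. Neutrophil genes stood at 1960 and 1416 CPM, led by S100a9, and monocyte and macrophage genes at 182 and 225 CPM, led by Lyz2. Epithelial genes stood at 141 and 211 CPM, fibroblast genes at 108 and 206 CPM, erythroid genes at 33.1 and 84.3 CPM, B cell genes at 16.5 and 22.8 CPM, and mesothelial genes had 0 and 1 UMIs. The part of these cells' transcripts in the other ratios was not tested, apart from the removal given next. Without the 2 saline and 7 NP cells with at least 10 marker UMIs of another type, 84 genes were higher and 103 lower, and the MHC class II median was 3.21.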

How the data were processed

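Lungs of 4T1-bearing BALB/cJ mice were digested, red cells were lysed, and 10x Chromium libraries were sequenced. The authors made the deposited count matrices with Cell Ranger (version 6.0 by the submitters' processing notes, 4 in the matrix header) on mm10. Each holds raw UMI counts of 32285 genes for every barcode, with 91168129 saline and 90081747 NP UMIs in all, before any cell was selected.

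Cells were selected by the limits given in the report, without clustering. The rule for the cells, the comparison and the gene lists were chosen with earlier results of these data known, and none is independent support. Counts were pooled over the cells of a group and scaled to CPM. Log2 ratios set a count under 3 to 3, and their intervals are exact conditional binomial intervals (95%). Shares carry Clopper-Pearson intervals, but the upper limit given beside a share of 0 is 3 divided by the number of cells. Both cover counting error only. With 1 library per condition no test was possible, and spread between mice cannot be told apart from the treatment. A gene entered a list or a count with at least 20 UMIs over both libraries. The mouse gene lists were written by hand (33 lists), as were the vessel-type markers.

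Named genes are the genes of the gate, the 10 highest and 10 lowest ratios among genes with at least 50 UMIs and an interval without 0, up to 5 most abundant and up to 4 most different members per list, and the 10 genes highest against Vwf-negative cells. Other genes were named after their values were seen, and some genes under this rule are not reported here. Alternatives were 14 other settings, and 4 more (without Ptprc-positive cells, without cells carrying 10 UMIs of another type, and each vessel leaning alone) were chosen after seeing the data. Free RNA was estimated from barcodes with under 50 UMIs. The promoter windows are RefSeq's on GRCm38.p6. Calculations were tested on simulated data. Doublet scores came from Scrublet in scanpy 1.11.5, intervals from scipy 1.17.1, figures from matplotlib 3.10.9 and the rest from pandas 2.3.3 and numpy 2.4.6 under Python 3.11.15.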

Additional observations from a re-analysis of the deposited data

Results flagged for a closer look

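For 13 genes, 7 of them named here, the ratio of NP to saline was called in one direction in the Vwf-positive cells and in the other in another endothelial group, and the difference itself was not tested. Gja5 had a log2 ratio of −1.11 in the Vwf-positive cells and of 1.84 in the Vwf-negative cells, where it had 0 saline and 36 NP UMIs. Gucy1a1 had −2.37, from 11 UMIs of a single saline cell and 10 NP UMIs, against 1.71 in the Vwf-negative and 1.94 in the Car4 or Ednrb-positive cells. Pde5a had −2.50, from 12 UMIs of the same kind, against 1.12 in the Car4 or Ednrb-positive cells. In the latter cells 4 of the named genes, of platelets, lymphocytes and alveolar epithelium, had negative ratios: Pf4 (4.30 against −1.19), Ccl5 (2.54 against −4.84), Gzma (2.41 against −4.11) and Sftpc (2.37 against −2.78). For Pf4, Ccl5 and Gzma a single NP cell held 99.6%, 93.9% and 100% of the Vwf-positive UMIs, while Sftpc was spread over 39 cells with at most 15.1% in 1 of them.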

How the results depend on the processing

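The MHC class II median kept its sign under all 18 alternatives (2.30 to 3.73), as did the medians of the IFN-γ (0.49 to 0.93) and MHC class I lists (0.39 to 0.82). Thinning to 1000 UMIs left 27 genes higher and 21 lower, where fewer genes could be tested, and moved the ratio of the Vwf-positive shares of endothelial cells, NP over saline, from 1.03 to 0.631, where the mitochondrial limit of 5% gave 1.43. A minimum of 50 UMIs left 48 lower genes, arterial-leaning cells alone 93 and venous-leaning cells alone 90, again with fewer genes or cells. The median of the dissociation stress list was 0.38 in arterial-leaning and −0.64 in venous-leaning cells, and the cause was not tested. Of 87 named genes the sign of the ratio turned under some alternative for 16. The interval of the reported ratio excluded 0 for 5 of them: Gja5 (1.21 with the mitochondrial limit at 5%), Gucy1a1 (0.029 with Vwf at 2 UMIs) and, in arterial-leaning cells alone, Atf3 (1.44), Thbd (0.62) and Emilin1 (0.63). For the other 11, whose interval included 0, the furthest values were those of Cytl1 (0.42 to −1.02 in venous-leaning cells), Flt1 (−0.11 to 0.58 when thinned), Fstl1 (0.15 to −0.54 in venous-leaning cells), Icam2 (0.05 to −0.33 there), Pdlim3 (−0.81 to 0.28 with equal weight per cell), Gpihbp1 (−0.15 to 0.26 with the mitochondrial limit at 5%), Cpe (0.35 to −0.25 in venous-leaning cells) and Amigo2 (−0.04 to 0.24 with Vwf at 5 UMIs). Of 52 called named genes 24 fell under 2-fold in an alternative without turning there, and 22 of these turned in none. Among the presentation and IFN-γ genes the lowest such values were those of H2-DMb1 (0.86) and H2-D1 (0.81) in venous-leaning cells, B2m (0.80 when thinned), Igtp (0.83), Irgm1 (0.83) and Irgm2 (0.70) in arterial-leaning cells, Gbp2b (0.40 in venous-leaning cells) and Gbp4 (0.88 with the mitochondrial limit at 5%). Others included S100a10 (down to 0.70), Npr3 (−0.79), Fabp4 (−0.57), Nr2f2 (0.31), Ackr1 (−0.67), Vcam1 (0.95) and Erap1 (−0.04). Arterial- and venous-leaning cells were told apart by genes that include Gja5, Cxcl12, Slc6a2, Vcam1 and Ackr1, so values of these genes within a leaning are no independent check. The cause of these shifts was not tested. The 24 saline cells set the precision: a gene with 3 saline UMIs is known only to within several fold. No paired analysis was possible because each condition is 1 library. Leaving out a replicate was not possible for the same reason.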

Other observations

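Cells just outside the Vwf limit, with 1 or 2 Vwf UMIs and under 2 UMIs of Car4 plus Ednrb, held a Cd74 UMI in 3 of 24 saline and 66 of 67 NP cells, at 36.7 and 2892 CPM. In the same cells Iigp1 stood at 379 and 703 CPM and Igtp at 171 and 323 CPM, against 82.7 and 494 CPM and 33.1 and 130 CPM in the Vwf-positive cells. The median depths of the cells just outside the limit were 2840.5 and 3418 UMIs. Of the 10 lowest ratios among genes with at least 50 UMIs, several were spread over cells: the phosphatase gene Ptpru (20 and 32 UMIs in 10 saline and 24 NP cells, log2 ratio −1.56), Zfp704 (19 and 31 UMIs, −1.53), the growth factor signalling inhibitor Spry4 (21 and 37 UMIs, −1.42), Zfp608 (21 and 38 UMIs, −1.38) and the lysosomal enzyme Ppt1 (19 and 36 UMIs, −1.31). Spry4 had ratios of −0.92 and −1.09 in the Vwf-negative and the Car4 or Ednrb-positive cells. Among the 10 highest, Lsm12 (3 and 77 UMIs, 2.45) had 53% of its NP UMIs in 1 cell.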
